A study of Bos taurus with 8 samples.

Results

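Mitosis and spindle genes are the 40 genes described here: cyclin B and its kinase, mitotic kinases, checkpoint and kinetochore proteins, spindle motors, the cytokinesis machinery, and 3 genes of ubiquitin-dependent protein destruction (CDC20, UBE2C and CDCA3). The genes were taken by symbol from the 21880 genes of the count matrices, and all 40 were found. The rule used symbols alone, though the set was drawn up with earlier results of these data known. Each gene was counted in unique molecular identifiers (UMIs, tags that count each captured transcript once) in single cells of bovine muscle and of cultures grown from it.

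As background, cyclin B bound to CDK1 drives a cell into mitosis, PLK1 and the Aurora kinases mature and separate the spindle poles, and the chromosomal passenger complex corrects faulty attachments. The spindle checkpoint kinases delay the cell until every kinetochore is attached. CDC20 and the E2 enzyme UBE2C then direct the anaphase-promoting complex to destroy cyclin B, and the central spindle and anillin pinch the cell apart. Transcripts of most of these genes accumulate in late S and G2 phase and disappear after division, so they mark dividing cells. Adult satellite cells (SCs, the muscle stem cells) and fibro-adipogenic progenitors (FAPs, connective tissue progenitors) are known to rest in uninjured muscle and to divide in culture.

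The cells came from semitendinosus muscle of 10 Belgian Blue cattle, 5 calves (donors 2, 4, 5, 7 and 10) and 5 adults (donors 1, 3, 6, 8 and 9), dissociated with collagenase. Donors 6, 8 and 10 were male and the other animals female. They were sequenced straight from muscle, at P0 after 72 h of culture, and at passages 2, 5 and 8 (P2, P5 and P8), in a serum-free growth medium. The series text gives P0 as unsorted cells, while its sample label names SCs, FAPs and unsorted cells, and P0 is taken as unsorted for all donors here. Until the sort at 72 h all cells were on fibronectin. From the sort on, donors 5, 6 and 10 gave SC cultures on laminin, donors 4, 7 and 8 gave FAP cultures on collagen I, and donors 1, 2 and 9 stayed unsorted on fibronectin. Donor 3 was present in muscle alone. SC and FAP cultures therefore differ in donor, coating and sort at once, and these cannot be told apart. From P0 to P2 both also crossed the sort and a change of coating, which cannot be told apart from the passage. The 5 timepoints were 1 library each, so the timepoint and its library cannot be told apart either.

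The cells kept by the authors numbered 2772 to 10405 per library, with a median of 4184 UMIs per cell in muscle and 18340 to 27239.5 in culture. Between 4 and 29 cell barcodes were shared by a pair of libraries, at most 0.302% of the smaller one. Counts were summed per donor, deposited cell type label and timepoint where at least 10 cells were present, and levels are given as UMIs per 1000000 UMIs of that sum (CPM). A comparison across all genes used edgeR's quasi-likelihood test with Benjamini-Hochberg adjustment, and a gene was called where the adjusted p was below 0.05 and the change exceeded 1 on the log2 scale. The labels were set against defining markers. In muscle 92.1% of FAPs outside G2/M carried a UMI of PDGFRA, and 70.8% of SCs outside G2/M one of MYF5 and 6.64% one of PAX7. PDGFRA stood at 779 CPM in muscle FAPs against 16.4 CPM in all other cells, and at 282 against 50.7 CPM at P0. MYF5 stood at 684 CPM in muscle SCs against 5.23 CPM in the others, and at 63.8 against 3.00 CPM at P0. The FAP labels were less separate at P0 by the matrix genes, with DCN at 2867 against 896 CPM and LUM at 355 against 199 CPM, where muscle had 18945 against 509 CPM and 2306 against 54.9 CPM.

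In muscle, the 40 genes together took 178 ± 74.6 CPM (SD, n = 10) of the UMIs of FAPs and 1564 ± 1035 CPM (SD, n = 10) of those of SCs. The donors ran from 94.5 to 303 CPM in FAPs and from 184 to 3040.2 CPM in SCs. Donors 1 and 3, both adult, had the lowest SC levels, 188 and 184 CPM, from 42 and 26 cells, and the other 8 donors lay between 970.5 and 3040.2 CPM. SCs were higher than FAPs in 9 of 10 donors, by a mean of 2.75 on the log2 scale (exact 2-sided sign-flip test, p = 0.00586, adjusted p = 0.0391 over a family of 20 such tests). Vascular endothelial cells (VECs) stood at 505 ± 369.8 CPM (SD, n = 10), macrophages at 343 ± 205 CPM (SD, n = 10), smooth muscle and mesenchymal cells (SMMCs) at 336 ± 338 CPM (SD, n = 10) and lymphocytes at 292 ± 155 CPM (SD, n = 10). Cells labeled myocytes, which have left the cell cycle, held 11 member UMIs in 45 cells, a pooled level of 66.2 CPM.

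The muscle SC signal sat in few cells. The deposited label of G2/M phase was carried by 105 of the 647 SCs, from 9 donors. These held 91.5% of the member UMIs and 20.2% of the UMIs of all genes. Their pooled level was 8403 CPM against 197 CPM in the 542 cells labeled G1 or S. The genes behind that label are not given in the sources used here, and such lists usually hold many of the members, so this is a description. In the G2/M cells a UMI of MYF5 was seen in 47.6% and of ITGA7, an integrin of SCs, in 60.0%, against 70.8% and 47.8% in the others, while PTPRC, a leukocyte gene, was at 0 in both sets and PDGFRA was in 1.90% against 2.77%. ACTA2, a smooth muscle actin, was in 44.8% of the G2/M SCs against 28.0% of the others. The G2/M SCs were deeper, with a median of 4714 UMIs per cell against 3741.5. By level MYF5 stood at 314 against 777 CPM, ITGA7 at 249 against 204 CPM and ACTA2 at 312 against 228 CPM. The endothelial genes CDH5 and PECAM1 stood at 31.7 and 26.4 CPM against 4.02 and 8.05 CPM, each in 2.86% of cells against 1.48% and 1.84%. The part of these other transcripts in the SC value was not tested. In muscle FAPs, 61 cells labeled G2/M reached 1346 CPM against 131 CPM in the others, with PTPRC in 9.84% against 0% of cells, CD14, a monocyte gene, in 34.4% against 26.4%, and PDGFRA in 80.3% against 92.1%. The T cell genes CD3E and CD2 were in 8.20% against 0.0855% and in 3.28% against 0% of these cells. The G2/M FAPs were shallower, with a median of 4555 UMIs per cell against 6282.5, which lowers the share of cells with a UMI. By level PDGFRA stood at 794 against 778 CPM and DCN at 19769 against 18914 CPM. The part of leukocyte transcripts in the FAP value was not tested.

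**Figure D1:**
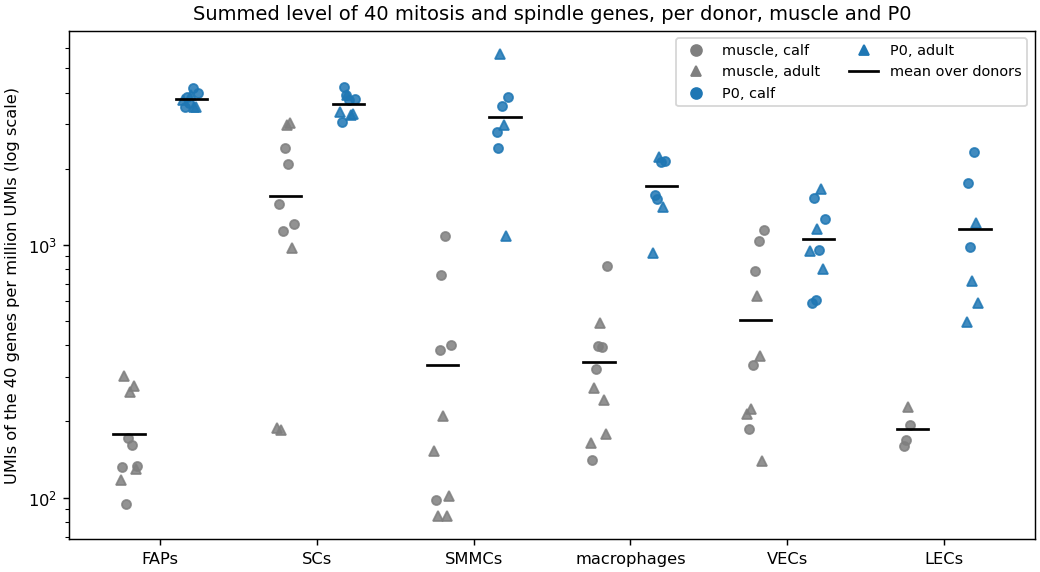
Summed level of the 40 genes (CPM, log scale) per donor in 6 deposited cell types, in muscle (grey) and at P0 (blue). Circles are calves, triangles adults and bars the mean over donors with at least 10 cells; muscle FAPs lay below 304 CPM and P0 FAPs above 3490 CPM, while muscle SCs spread from 184 to 3040.2 CPM.

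After 72 h in culture the level in FAPs was 3761 ± 243 CPM (SD, n = 9), with donors from 3494 to 4174 CPM. It was higher than in muscle in 9 of 9 donors, by a mean of 4.59 on the log2 scale (exact sign-flip test, p = 0.00391, the smallest 9 donors allow, adjusted p = 0.0391). All 40 members were tested across the genome and all 40 rose, where 20.9% of 9208 genes tested rose by the same rule. The median change was 5.28 for the members and 0.026 for all genes (log2). Muscle and P0 values did not overlap for any member, where 20.1% of all genes tested lay higher without overlap. A member with few muscle UMIs passed the filter on low counts through P0 alone and had to differ, so these counts are a description. Among the lowest were CCNB2, KIF2C, CCNB1 and CDC25C with 1 or 2 muscle UMIs, and CDCA8, KIF11, KIF4A and KIF20A with 4. With every sum thinned to the smallest one, 1 member could be tested and it rose. FAPs labeled G1 also stood higher at P0, at 886 CPM against 113 CPM in muscle. Here and in every comparison of summed counts, more dividing cells, more transcripts per dividing cell and transcripts set free by other cells cannot be told apart.

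Among the mitotic entry genes, CKS2, a small subunit that binds CDK1, ran in muscle FAPs from 29.6 to 67.4 CPM (median 53.9). At P0 it ran from 220.5 to 292 CPM (median 269.5), a log2 fold change of 2.41 ± 0.13 (SE, adjusted p = 7.93e-15), the smallest of the 40. CDK1 itself changed by 5.07 ± 0.25. The cyclins CCNB1 and CCNB2 had been near absence in muscle FAPs, with 2 and 1 UMIs over all donors. At P0 CCNB1 ran from 88.9 to 115 CPM (median 107), and the ratio of pooled levels was 406 with a 95% counting interval of 112 to 3354. For CCNB2 the ratio was 597, with an interval of 107 to 23580, and for the motor KIF2C, at 1 muscle UMI, it was 261, from 46.9 to 10322. The phosphatase CDC25C, which activates CDK1, had 2 muscle UMIs. For the 36 members with more than 3 muscle UMIs, the pooled ratio ran from 4.67-fold for CKS2 to 137-fold for ASPM, which focuses spindle poles, and the median ratio over all 40 was 37.3-fold. These intervals cover counting error alone.

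The kinase AURKA, which builds the spindle poles, ran from 0 to 9.55 CPM (median 2.27) in muscle FAPs and from 52.7 to 78.1 CPM (median 65.4) at P0, a log2 fold change of 5.02 ± 0.24. PLK1 changed by 4.61 ± 0.19. In the chromosomal passenger complex, BIRC5 (survivin) ran from 0 to 18.5 CPM (median 2.74) in muscle and from 124 to 148 CPM (median 133) at P0. No muscle donor reached the P0 range for either gene. The other subunits AURKB and CDCA8 changed by 5.10 and 5.70 on the log2 scale. The checkpoint gene BUB1B ran from 0 to 7.39 CPM (median 0.410) to 53.7 to 76.3 CPM (median 61.3) at P0, and BUB1 and TTK changed by 4.30 and 4.96.

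At the kinetochore, CENPF, a large protein of the outer plate, ran from 0 to 16.3 CPM (median 7.37) in muscle FAPs and from 260.3 to 333 CPM (median 281) at P0. The 5 kinetochore and centromere genes changed by 4.45 (NUF2) to 5.51 (CENPF and CENPA). TPX2, which activates AURKA and seeds microtubules, ran from 3.57 to 15.1 CPM (median 10.7) to 223 to 259.7 CPM (median 235). Of the 9 spindle assembly genes HMMR changed least, by 2.44, and its donors in muscle already ran from 3.03 to 37.0 CPM (median 12.5). In the cytokinesis group, ANLN (anillin) ran from 0 to 2.83 CPM (median 0) to 99.9 to 133 CPM (median 116), while RACGAP1 and ECT2, which activate RhoA at the cell equator, changed by 2.93 and 2.85. UBE2C, CDC20 and CDCA3 of the ubiquitin group changed by 5.22, 7.07 and 6.53. TOP2A, which untangles sister chromatids, ran from 0 to 22.2 CPM (median 4.33) to 236 to 285 CPM (median 266), and MKI67, which coats mitotic chromosomes, changed by 5.61.

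SCs stood at 3615 ± 381 CPM (SD, n = 9) at P0, higher than in muscle in 9 of 9 donors by a mean of 1.40 on the log2 scale (exact sign-flip test, p = 0.00391, adjusted p = 0.0391). The smallest difference among donors was 0.11 and the largest, in donor 1, was 4.15. Of the 37 members tested, 21 rose and none fell, where 15.8% of 5221 genes tested rose, and the median change was 1.10 against -0.005 for all genes. CDC25C, CDCA8 and KIF4A did not pass the filter on low counts. Members low in muscle SCs, such as KIF2C, GTSE1, CDK1 and PLK1 with 20 to 28 UMIs over 10 donors, could pass it through P0 alone, so these counts are a description. Of the 4 members with the most muscle UMIs, CENPF (635), CKS2 (484), TOP2A (475) and CKAP2 (432), none was called. Of the 37 tested, 11 lay higher at P0 with no overlap (17.9% of all genes tested did). Without the filter on low counts 33 of 40 rose, and with the sums thinned to the smallest one none of the 7 that could be tested was called. The share over all genes was not taken in these alternatives.

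The SC changes ran from -0.29 ± 0.18 for RACGAP1 (adjusted p = 0.153) to 2.79 ± 0.22 for ANLN (adjusted p = 2.26e-11), both proteins of the cell equator. ANLN was measured in muscle SCs from 0 to 31.1 CPM (median 14.6) and at P0 from 75.0 to 128 CPM (median 124). RACGAP1 ran from 18.8 to 138 CPM (median 55.9) in muscle and from 48.2 to 66.7 CPM (median 58.0) at P0, and the groups overlapped. Both mitotic kinases rose, AURKA by 1.70 ± 0.23 from 0 to 28.8 CPM (median 11.7) to 43.4 to 61.6 CPM (median 50.0), and PLK1 by 2.26 ± 0.23. All 3 checkpoint genes and all 3 of the ubiquitin group rose, among them BUB1B by 1.31 ± 0.32, UBE2C by 1.33 ± 0.34 and CDC20 by 2.01 ± 0.23.

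Other role groups were called in part in SCs. Of the 5 kinetochore genes CENPE alone was called, while CENPF ran from 6.26 to 359.9 CPM (median 226) in muscle and from 268 to 419.7 CPM (median 377) at P0, a log2 fold change of 0.77 ± 0.28. Of the 6 tested cytokinesis genes ANLN alone was called. In the entry group CCNB1 rose by 2.43 ± 0.24, from 0 to 36.2 CPM (median 12.3) to 68.5 to 108 CPM (median 91.4), while CKS2 gave 0.41 ± 0.23 with donors from 20.5 to 302 CPM (median 145) in muscle and 191 to 263 CPM (median 223) at P0. TOP2A gave 0.84 ± 0.36 and was not called, with donors from 0 to 347 CPM (median 110.3) in muscle, and MKI67 rose by 1.84 ± 0.26. TPX2 rose by 1.11 ± 0.29, and 5 of the 9 spindle assembly genes were called in all.

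The change from muscle to P0 was larger in FAPs than in SCs for all 39 members tested in an interaction term (39 called, where 7.60% of 8751 genes were called in that direction). The difference of log2 fold changes ran from 1.45 ± 0.27 for HMMR to 7.37 ± 0.65 for CCNB2, with a median of 3.68 against 0.032 for all genes. The smallest adjusted p, 1.55e-12, was that of BIRC5, and the CCNB2 value rests on 1 muscle UMI in FAPs. Members with few muscle UMIs in FAPs passed the filter on low counts through other groups and their FAP change had to be large, so this count too is a description. The 8 members with more than 50 muscle UMIs in FAPs differed by 1.45 (HMMR, 113 UMIs), 1.79 ± 0.29 (CKS2, 435), 2.25 ± 0.33 (ECT2, 53), 3.01 ± 0.27 (RACGAP1, 59), 3.22 ± 0.33 (PRC1, 53), 3.31 ± 0.38 (TPX2, 79), 3.80 ± 0.40 (CKAP2, 76) and 4.53 ± 0.43 (CENPF, 52). With the sums thinned to the smallest one, none of the 16 members that could be tested was called.

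Other cell types had fewer members that could be tested. VECs went from 505 ± 369.8 CPM (SD, n = 10) to 1055 ± 379 CPM (SD, n = 9), higher in 7 of 9 donors (mean log2 difference 1.24, exact sign-flip test, p = 0.0234, adjusted p = 0.0781). SMMCs reached 3192 ± 1411 CPM (SD, n = 7) and macrophages 1706 ± 481 CPM (SD, n = 7), each higher than in muscle in 7 of 7 donors, by 3.67 and 2.24 on the log2 scale (exact sign-flip tests, p = 0.0156, the smallest 7 donors allow, adjusted p = 0.0625). Lymphatic endothelial cells (LECs) went from 188 ± 30.2 CPM (SD, n = 4) to 1155 ± 672 CPM (SD, n = 7), with no test. Over all 10 donors muscle LECs held 75 member UMIs in 81 cells, with 13 of the 40 members detected, so their level rests on few UMIs. The G2/M label was rarer at P0 in VECs (4.15% ± 3.38 against 13.4% ± 4.81 in muscle, SD) and macrophages (14.9% ± 8.29 against 26.0% ± 9.65). LECs had 3.27% ± 5.00 against 19.2% ± 15.7, from 4 cells and 9 cells with the label. In SMMCs the label was more frequent (24.0% ± 15.1 against 10.5% ± 7.68). Cells with the label were not alike at the 2 timepoints. VECs with it stood at 2127 ± 2168 CPM in muscle (SD, n = 8) and 6932 ± 576 CPM at P0 (n = 2). Macrophages with it stood at 702 ± 458 CPM in muscle (n = 4), where those labeled G1 at P0 had 609 ± 126 CPM (n = 6). VECs labeled G1 stood at 158 CPM in muscle and at 532 CPM at P0. The part of transcripts set free by other cells in these levels was not tested. Of 11 members tested in VECs 6 rose (15.6% of all genes), from -0.36 for NUSAP1, which was not called, to 2.10 for UBE2C. All 6 tested in SMMCs rose (15.1% of all genes), from 1.27 for CKS2 to 5.29 for BIRC5, and 3 of 4 in macrophages (14.3% of all genes), where CKS2 gave 0.05 and CENPF 2.66. Members that passed the filter through P0 alone had to differ, so these counts describe the tested genes alone. Without the filter 29, 39 and 35 of 40 rose in the 3 types, and with thinned sums 1 of 4 was called in VECs and no member could be tested in SMMCs or macrophages. The share over all genes was not taken in these alternatives. Without the filter, members near absence in muscle had to come out higher, among them 3 at 0 muscle UMIs in SMMCs.

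At P0 the summed level of SCs and FAPs differed by a mean of -0.06 on the log2 scale, between -0.19 and 0.12 over the 9 donors, with SCs higher in 3 (exact sign-flip test, p = 0.148, adjusted p = 0.294). No member was called in edgeR, where 10.7% of 10827 genes were, and DESeq2 called none either. At an unadjusted p below 0.05 there were 19 members, where 54.5% of all genes were below it. CDC20 was lowest in SCs, at -0.42 ± 0.07 (adjusted p = 2.54e-05), with donors from 77.9 to 118 CPM (median 102) against 118 to 143 CPM (median 136) in FAPs. CENPF was highest in SCs, at 0.32 ± 0.08 (adjusted p = 0.00166).

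**Figure D2:**
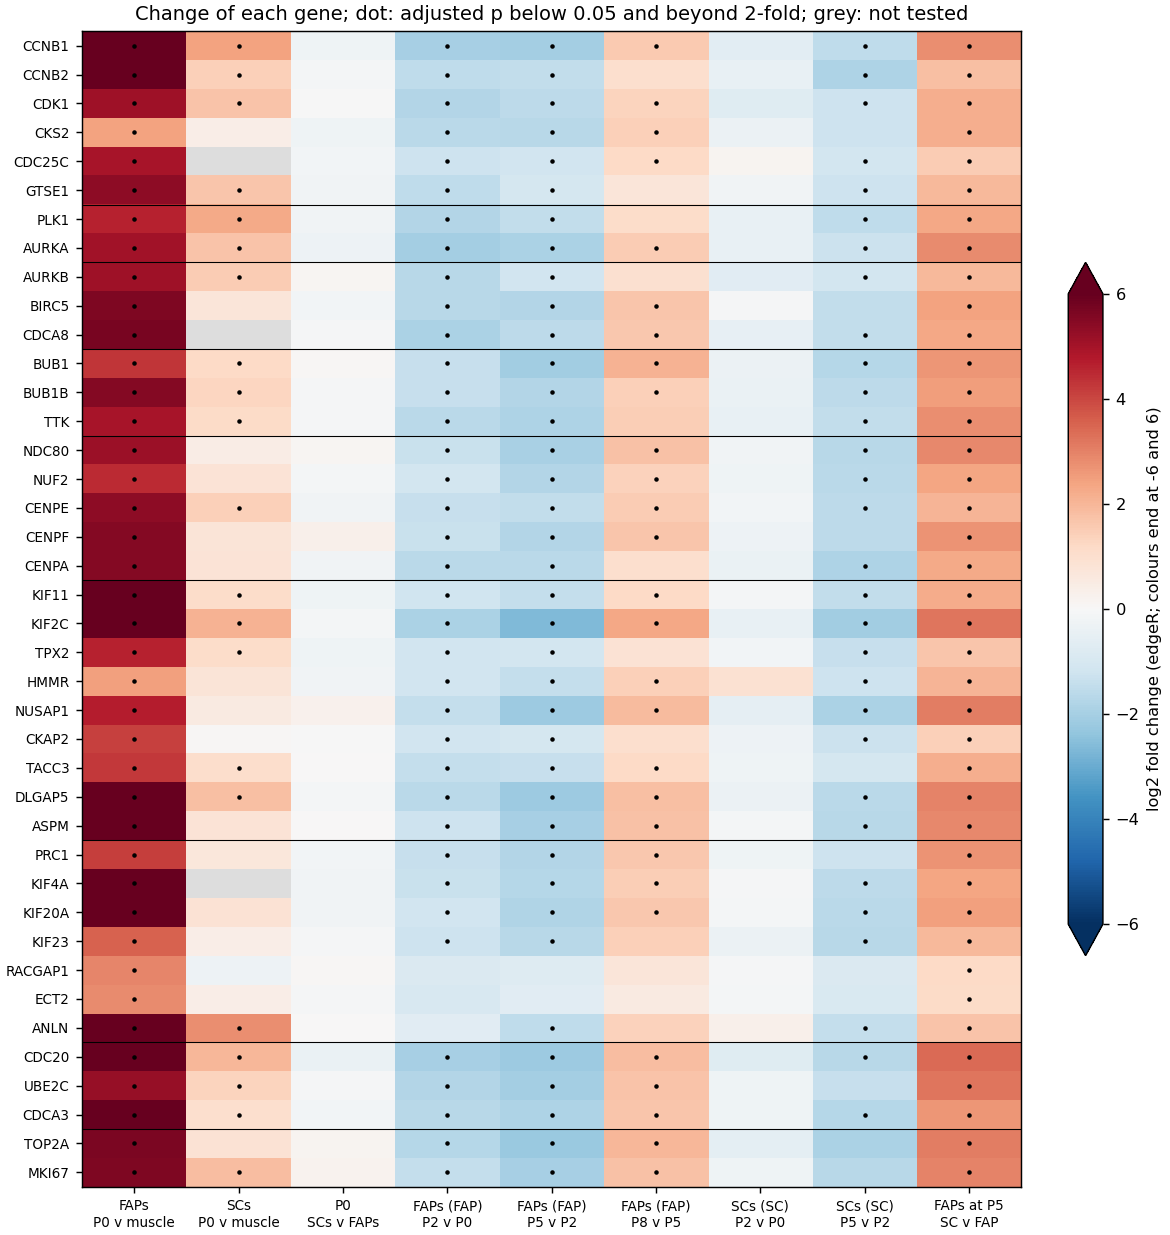
Log2 fold change of each of the 40 genes (rows, with lines between the 9 role groups) in 9 comparisons (columns; the culture is in parentheses), from edgeR. Dots mark called genes and grey cells genes not tested; all 40 carry a dot in FAPs from muscle to P0 and none between SCs and FAPs at P0.

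In FAPs grown on as FAP cultures the genes fell to P5 and rose to P8. Donors 4, 7 and 8 had summed levels of 3857, 4174 and 3504 CPM at P0, 2204, 1274 and 637 at P2, 564, 391 and 282 at P5 and 1911, 1080.5 and 534 at P8. The order of the donors was the same at P2, P5 and P8, with donor 4 highest and donor 8 lowest. Of 40 members 37 fell from P0 to P2 (10.6% of all genes fell), 38 fell from P2 to P5 (3.26%) and 28 rose from P5 to P8 (2.00%). No member was called the other way. The medians were -1.42, -1.72 and 1.47 on the log2 scale, against 0.00031, 0.014 and -0.0024 for all genes. The exact sign-flip test on 3 donors cannot go below p = 0.25, which each step gave.

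From P0 to P2, AURKA fell most, by 2.03 on the log2 scale (SE 0.40, adjusted p = 0.000152), with donors 4, 7 and 8 at 25.5, 13.5 and 6.63 CPM. ANLN changed least, at -0.70 ± 0.43, and ECT2 and RACGAP1 were the other members not called, at -0.95 and -0.88. All members of the other role groups fell. From P2 to P5, KIF2C, a motor that depolymerizes microtubules, gave -2.63 ± 0.54, with 17.1, 7.51 and 2.84 CPM at P2 and 2.17, 0.991 and 0.781 CPM at P5. ECT2 changed least, at -0.67 ± 0.24, and with RACGAP1 it was not called. TOP2A fell from 131, 68.5 and 33.7 CPM to 24.2, 12.9 and 7.33 CPM. CKS2 fell from 134, 74.4 and 39.7 CPM to 34.4, 22.5 and 14.7 CPM.

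From P5 to P8 the same 2 genes marked the ends of the range, KIF2C with 2.32 ± 0.59 and ECT2 with 0.52 ± 0.25. The checkpoint kinase BUB1 had 2.08 ± 0.47 (adjusted p = 0.00873), and BUB1B stood at 32.3, 16.0 and 7.48 CPM against 8.55, 6.44 and 4.24 CPM at P5. UBE2C stood at 59.7, 36.8 and 18.5 CPM against 15.8, 11.4 and 5.17 CPM. At P8 donor 8 was below the P5 value of donor 4 for BUB1B, and for BIRC5 its 10.6 CPM lay below the 16.3 CPM of donor 4 at P5, so the groups overlapped. The count from P0 to P2 was 19 without donor 7, that from P2 to P5 was 4 without donor 7 and 22 without donor 4, and that from P5 to P8 was 0 without donor 4 or without donor 7. DESeq2 and the fit with donor as a block kept the counts of all 3 steps within 1.5 times, while the last step had 14 calls without the filter on low counts and 5 with thinned sums.

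In FAPs of unsorted cultures donors 1, 2 and 9 stood at 1390.3, 775 and 1048 CPM at P2, 619, 407 and 415 CPM at P5 and 1801, 626 and 1018 CPM at P8. From P0 to P2 their mean went from 3584 to 1071 CPM. These cultures stayed unsorted on fibronectin, and the part of the sort or coating in the change of FAP cultures was not tested. No comparison across all genes was run for this step. All 3 donors were lower at P2, by a mean of 1.78 on the log2 scale (exact sign-flip test, p = 0.25, the smallest 3 donors allow). All 3 donors were lower at P5 than at P2 and higher again at P8. From P2 to P5, 7 members fell (1.00% of all genes), with a median of -1.08 and a range from -1.67 for KIF2C to -0.49 for ECT2. KIF2C and ECT2 were not called. With donor as a block, which pairs the passages of an animal, 23 were called, and DESeq2 called 16. From P5 to P8, 7 rose (0.553% of all genes), with a median of 1.21 and a range from 0.52 for TACC3, a microtubule-binding protein, to 1.90 for BUB1, which was called. The block gave 26 and DESeq2 20, and for both steps the share over all genes was not taken in these alternatives. Without any 1 donor the counts were 0 or 1 for the first step and 0 for the second.

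**Figure D3:**
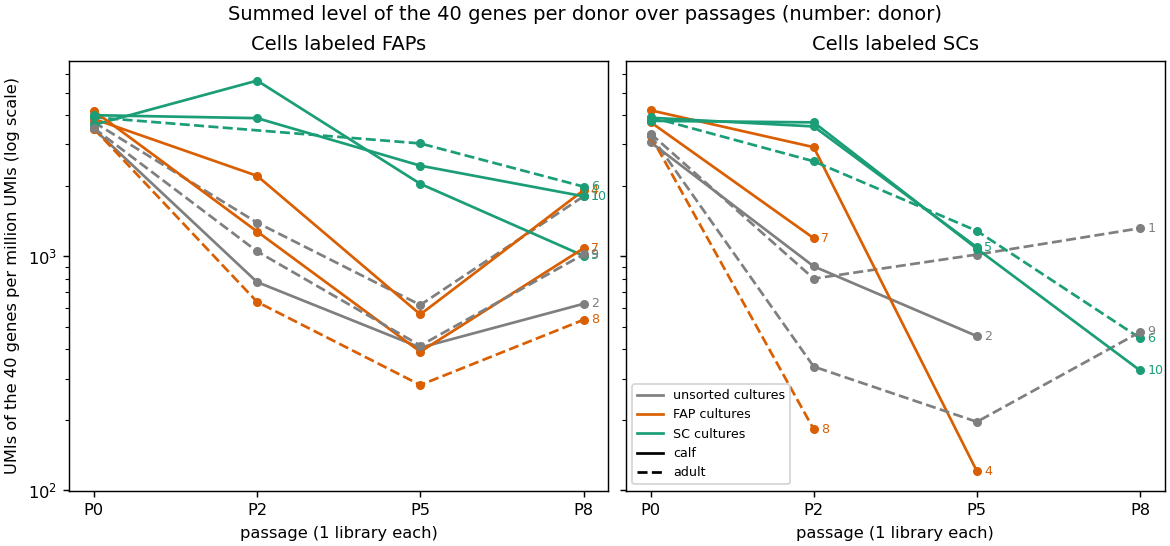
Summed level of the 40 genes (CPM, log scale) per donor from P0 to P8, in cells labeled FAPs (left) and SCs (right), where at least 10 cells were present. Colors give the culture and line types the age class; FAPs of FAP and unsorted cultures were lowest at P5, and SCs of SC cultures were at 2543 to 3729 CPM at P2 and 1075 to 1282 CPM at P5.

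In SCs of SC cultures donors 5, 6 and 10 stood at 3904, 3930.1 and 3785 CPM at P0 and 3582, 2543 and 3729 CPM at P2, lower in all 3 by a mean of 0.26 on the log2 scale. No member was called in edgeR (10.5% of 11953 genes were), 3 had an unadjusted p below 0.05 (32.6% of all genes had), and DESeq2 called none. The changes ran from -0.74 ± 0.35 for CDK1 to 0.91 ± 0.34 for HMMR (adjusted p = 0.0589). HMMR stood at 156, 84.2 and 145 CPM at P2, and its 9 donors at P0 ran from 53.2 to 74.0 CPM (median 67.3).

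At P5 the summed SC level of the same donors was 1091, 1282 and 1075 CPM, which did not overlap with P2. Of 40 members 30 fell and none rose (2.62% of all genes fell), with a median of -1.53 against -0.0095 for all genes, and no member's P2 and P5 values overlapped, where 21.1% of all genes lay lower without overlap. KIF2C changed most, at -2.09 ± 0.42, from 25.6, 18.7 and 27.7 CPM to 5.20, 6.07 and 5.21 CPM. RACGAP1 changed least, at -0.88 ± 0.21, from 57.6, 49.2 and 65.3 CPM to 28.7, 31.8 and 30.9 CPM. The 10 members not called included TOP2A and MKI67, at -1.88 ± 0.71 and -1.67 ± 0.69. TOP2A stood at 239, 180.0 and 218 CPM at P2 and 51.3, 73.9 and 43.8 CPM at P5. CENPF, not called, had a mean of 336 ± 48.4 CPM at P2 and 112 ± 21.2 CPM at P5 (SD, n = 3). CCNB2 and CENPA, the centromeric histone, both fell by 1.83. Without donor 5 or without donor 10 no member was called, and without donor 6 there were 18.

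Few SCs were left at P8. Donors 6 and 10 kept 25 and 36 of them in SC cultures (donor 5, with 8, was left out of the fit), at 446 and 325 CPM, against 1282 and 1075 CPM at P5. No member was called (1.39% of 11953 genes were, either way), 19 had an unadjusted p below 0.05 (16.7% of all genes had), and DESeq2 called 2. NDC80 and TTK, with the largest fitted changes, had no UMI at P8, so no fold change is given. Among members with more than 3 UMIs at P8, CENPF changed most, at -3.08 ± 1.23, and CDC25C changed least, at -0.18 ± 0.73 from 4 UMIs. CKS2 stood at 32.6 and 43.1 CPM and TPX2 at 42.8 and 31.7 CPM in the 2 donors.

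Some cells in SC cultures carried the FAP label. At P5 donors 5, 6 and 10 reached 2037, 3031 and 2435 CPM, from 593, 31 and 70 cells, while FAPs of FAP cultures were at 564, 391 and 282 CPM. All 40 members were higher in the SC cultures (7.62% of all genes were), from 1.16 ± 0.26 for ECT2 to 3.39 ± 0.54 for CDC20 (adjusted p = 3.94e-05), with a median of 2.36 against -0.068 for all genes. CDC20 stood at 78.5, 77.9 and 80.8 CPM against 9.68, 6.07 and 3.42 CPM. AURKA stood at 21.8, 45.2 and 36.3 CPM against 5.38, 3.67 and 2.01 CPM, and ANLN at 86.4, 96.0 and 87.7 CPM against 30.3, 20.9 and 17.3 CPM. No member overlapped between the cultures (32.8% of all genes were higher without overlap), and all 40 were called without any 1 of the 6 donors. With every sum thinned to the smallest one, 2 members were called and RACGAP1 and ECT2 changed sign, to -0.14 and -0.12 (adjusted p = 0.999).

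FAP markers were lower in these cells. DCN, a matrix proteoglycan, stood at 2162 CPM against 12979 CPM in FAPs of FAP cultures, LUM at 1154 against 4695 CPM, and PDGFRA at 64.7 against 538 CPM, with a PDGFRA UMI in 73.1% against 99.1% of cells. The SC marker MYF5 was in 4.76% against 8.24% of cells and PAX7 was at 0 in the SC cultures, while ITGA7 was in 15.1% against 10.2%. In SCs of the same cultures MYF5 was in 84.0% and ITGA7 in 92.1% of cells. Those SCs had DCN at 1415 CPM, LUM at 1028 CPM and PDGFRA at 27.6 CPM. By the level of these 3 genes the FAPs of SC cultures lay nearer to them than to FAPs of FAP cultures. The endothelial gene PECAM1 was in 2.31% of these FAPs against 0.0253% in FAP cultures. Within the SC cultures the summed level of SCs was below that of FAPs in 3 of 3 donors, by a mean of 1.11 on the log2 scale (exact sign-flip test, p = 0.25, the smallest 3 donors allow). At P2 donors 5 and 10 had 19 and 12 such FAPs, at 5624 and 3887 CPM, and at P8 the 3 donors stood at 1004, 1983 and 1802 CPM. The part of the label or of the culture in the difference was not tested.

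At P2 SCs of SC cultures and FAPs of FAP cultures could be set side by side, though in different donors. All 40 changes were positive, and 6 members were called higher in SCs (9.46% of all genes), from 0.69 ± 0.40 for TPX2, which was not called, to 1.85 ± 0.42 for HMMR (adjusted p = 0.00262). HMMR stood at 156, 84.2 and 145 CPM in SCs and 49.1, 29.7 and 19.5 CPM in FAPs. The others called were AURKA, BIRC5, NDC80, KIF4A and CDCA3. Without donor 4, the FAP donor with the highest level, 37 were called. Without donor 6 there were 11, and without donor 5, 7, 8 or 10 there was 1. In unsorted cultures, where both types came from the same 3 animals, all 40 changes were negative, from -1.69 for GTSE1 to -0.15 for ECT2. GTSE1 alone was called, a smaller share than the 5.42% of all genes called lower. In edgeR 4 members had an unadjusted p below 0.05, where 31.6% of all genes had. Without any 1 donor 0 were called. With donor as a block 3 were called, and whether the sorted and unsorted cultures differ in this was not tested. The summed level of SCs there was 802, 905 and 337 CPM in donors 1, 2 and 9, higher than in FAPs in 1 of 3 (exact sign-flip test, p = 0.5, adjusted p = 0.526). Cells labeled SCs there carried ITGA7 in 69.2% against 95.4% in SC cultures, and MYF5 in 63.4% against 81.1%. DCN stood at 3420 against 1280 CPM and PDGFRA at 68.5 against 25.7 CPM. The part of the label in these values was not tested.

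Between calves and adults at P0 edgeR called no member in FAPs or in SCs, and 0% of all genes. At an unadjusted p below 0.05 there were 2 members in FAPs (5.01% of all genes) and 8 in SCs (10.3%), and DESeq2 called none in either. The largest change in FAPs was 0.42 ± 0.19 for NUSAP1 and the smallest -0.08 for CDCA8. In SCs they were 0.38 ± 0.27 for NUSAP1 and -0.10 for ANLN. The summed level of calves against adults differed by 0.06 in FAPs and 0.11 in SCs at P0, and by -0.57 in FAPs, 1.00 in SCs and 1.05 in VECs in muscle (log2, exact permutation tests over donors, p from 0.127 to 0.373 in these 5 and 0.484 in VECs at P0, where 0.00794 is the smallest possible).

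The share of cells with these transcripts gave a second view. Each cell was thinned to 2000 UMIs, cells below that were left out, and a cell was counted as high with at least 3 member UMIs. In muscle 1.75% ± 2.02 (SD, n = 10) of FAPs, 7.67% ± 5.34 of SCs and 4.98% ± 2.70 of VECs were high, with 38 of 1231, 46 of 647 and 336 of 1166 cells left out. The FAP and SC shares moved with the limit on UMIs and with the depth of thinning, as given in the last section. In myocytes 0 of 29 cells were high, which allows a share of up to 10.3% by a floor of 3 cells and 11.7% by the 95% Wilson bound. At P0 74.8% ± 5.31 (n = 9) of FAPs, 59.1% ± 8.69 of SCs, 56.2% ± 8.48 of SMMCs (n = 7) and 22.8% ± 6.47 of VECs (n = 9) were high. Without thinning the pooled shares were 9.99% and 16.2% for FAPs and SCs in muscle and 98.4% and 96.8% at P0, at medians of 6213, 3861, 24188 and 18203 UMIs per cell.

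In FAP cultures the thinned share was 18.8% ± 13.9 at P2, 3.44% ± 1.37 at P5 and 17.2% ± 12.1 at P8 (n = 3 each). Donors 4, 7 and 8 had 33.7%, 16.5% and 6.15% at P2 and 4.98%, 2.99% and 2.37% at P5. SCs in SC cultures had 40.7% ± 12.4 at P2 and 13.0% ± 0.462 at P5, and FAPs in the same cultures 40.4% ± 9.95 at P5. No type that has left the cell cycle was at hand at P0 or at the passages to show the share that free RNA alone would give.

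**Figure D4:**
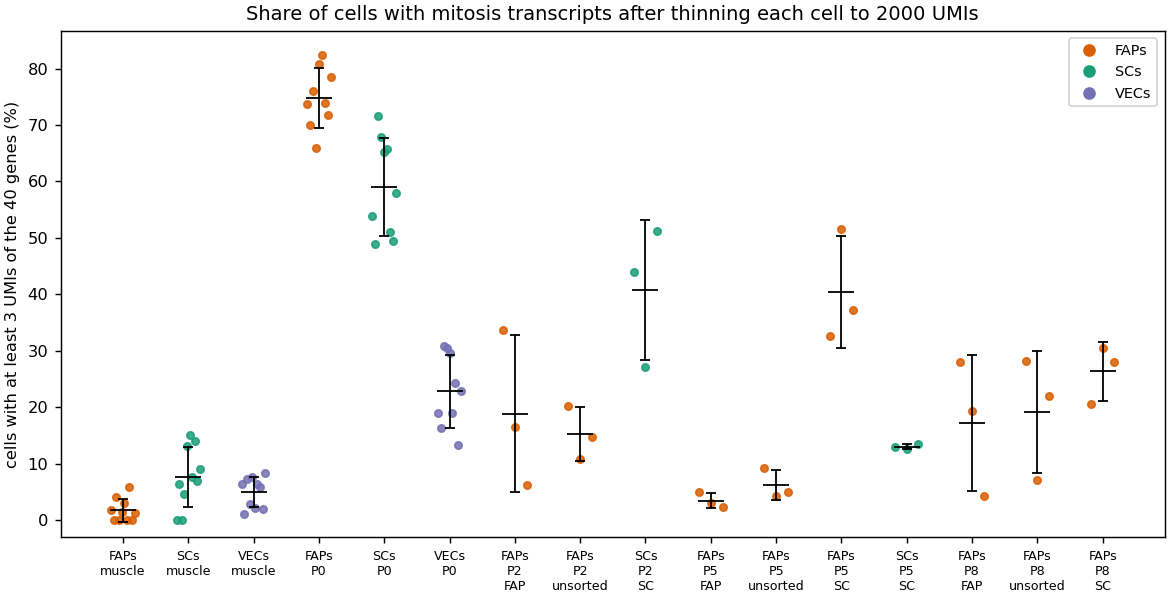
Percent of cells with at least 3 UMIs of the 40 genes after thinning each cell to 2000 UMIs, per donor (dots), with mean and SD (bars), by cell type, timepoint and, from P2 on, culture. P0 FAPs sat between 65.9% and 82.5%, muscle FAPs between 0% and 5.88%, and FAPs of FAP cultures at P5 between 2.37% and 4.98%.

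By the deposited phase labels, member transcripts at P0 were highest in G2/M cells. In P0 FAPs the summed level was 886 ± 132 CPM in cells labeled G1, 2375 ± 255 CPM in S and 6288 ± 314 CPM in G2/M (SD, n = 9). In P0 SCs it was 832 ± 172, 2065 ± 287 and 7314 ± 436 CPM. The G2/M label was carried by 36.0% ± 3.17 of FAPs and 29.9% ± 3.95 of SCs. These cells held 69.9% and 73.6% of the member UMIs, and 41.8% and 37.1% of the UMIs of all genes. The genes behind the deposited scores are not given in the sources used here. The standard G2/M list of the Seurat package, whose score names the deposited table uses, holds 32 of the 40 genes, so no test was made.

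Of the 3 phases, G2/M held the most UMIs for all 40 members in P0 FAPs, P0 SCs, P2 SCs of SC cultures, P2 FAPs of FAP cultures and muscle SCs. Of the UMIs of all genes, G2/M cells held 41.8%, 37.1%, 32.3%, 15.1% and 20.2% in these sets, in that order. Cells labeled S held 41.8% and 37.8% of them in P0 FAPs and P0 SCs. How many of all genes had most UMIs in G2/M was not taken, so the count of members is a description. The share in G2/M ran in P0 FAPs from 52.0% for ANLN to 79.6% for UBE2C, with a median of 70.0%, and in P0 SCs from 60.6% for NUF2 to 81.6% for ASPM. In muscle SCs the median was 97.0%, and RACGAP1, at 55.5%, had the lowest share. The 8 members outside that standard list (CCNB1, KIF20A, KIF4A, PLK1, BUB1B, PRC1, RACGAP1 and ASPM) had a median of 69.9% in P0 FAPs and 73.8% in P0 SCs, and the 32 inside it 70.2% and 70.4%.

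The level inside G2/M cells was also set side by side over passages, with no test. In SCs of SC cultures it was 8520 ± 618 CPM at P2 and 4114 ± 699 CPM at P5 (n = 3), while the share of cells with the label was 26.9% and 20.6%. In FAPs of FAP cultures it was 7195 ± 572 CPM at P2, 3891 ± 1866 CPM at P5 and 6861 ± 128 CPM at P8, with 12.5%, 6.35% and 12.9% of cells in G2/M. FAPs of SC cultures at P5 had 7206 ± 1688 CPM in G2/M cells, and 30.6% of cells had the label.

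**Figure D5:**
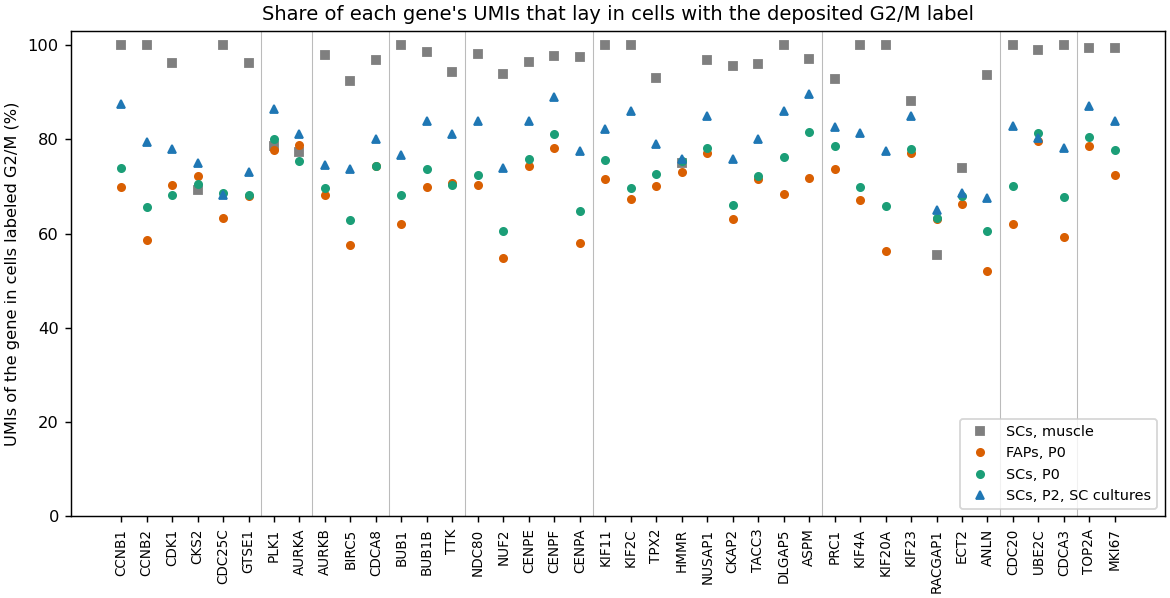
Percent of each gene's UMIs that lay in cells with the deposited G2/M label, for the 40 genes in role order (lines between groups), in muscle SCs, P0 FAPs, P0 SCs and P2 SCs of SC cultures. Muscle SCs sat at or near 100% for most genes with RACGAP1 lowest at 55.5%, and P0 FAPs ran from 52.0% to 79.6%.

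Other genes of the same processes were followed as 2 lists, 56 further mitosis genes and 31 S phase genes. From muscle to P0, 51 of 53 tested mitosis genes rose in FAPs, CEP55 (abscission) and PIMREG by most, at 7.63 and 7.37, and 27 of 29 S phase genes, led by the nuclease EXO1 (6.14) and the DNA methylation factor UHRF1 (5.75). Of all genes tested there 20.9% rose. CEP55, PIMREG and EXO1 had 1 to 3 UMIs in muscle FAPs. Genes with few muscle UMIs passed the filter on low counts through P0 alone and had to differ. The counts of both lists from muscle to P0, in every type and in the interaction term, are therefore a description. In SCs 22 of 34 and 13 of 21 rose (15.8% of all genes), led by MYBL2 (3.45) and SKA1 (3.09), and by CHAF1A (2.51) and RRM2 (2.39), a subunit of the enzyme that makes deoxyribonucleotides. The interaction term called 42 of 51 mitosis genes, led by CEP55 (6.04) and HJURP (5.50), and 12 of 27 S phase genes, led by UHRF1 (3.73) and DTL (3.30), where 7.60% of all genes were called that way.

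In the other types the counts were smaller. VECs had 4 of 15 mitosis genes higher, with PTTG1 (securin) at 2.23 and MYBL2 at 2.01, and 1 of 16 S phase genes, MCM5 at 1.13, with MCM2 next at 0.99 and not called. Of all genes tested in VECs 15.6% rose, so the S phase count lay below that share. SMMCs had 6 of 10 and 8 of 9 (15.1% of all genes), led by SPC24 (4.96) and PTTG1 (2.97), and by UHRF1 (4.77) and RRM1 (2.60). Macrophages had 2 of 5 and 2 of 4 (14.3% of all genes), led by the condensin subunits SMC2 (1.31) and SMC4 (1.28), and by MCM7 (1.93) and GMNN (1.70). Between SCs and FAPs at P0 neither list had a call in edgeR. At an unadjusted p below 0.05 there were 22 of 56 mitosis genes and 6 of 31 S phase genes, both smaller shares than the 54.5% of all genes, with PIMREG (-0.48), KIF18B (-0.43), CHAF1B (-0.39) and CDC6 (-0.38) farthest from 0.

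In FAP cultures 41 of 56 mitosis genes and 27 of 31 S phase genes fell from P0 to P2 (10.6% of all genes), with KIF18B (-1.98) and NCAPG (-1.97), and UHRF1 (-2.27) and CDC6 (-2.17), in front. From P2 to P5 42 of 56 and 25 of 31 fell (3.26% of all genes), PIMREG (-2.53), FOXM1 (-2.28), CDT1 (-2.69) and EXO1 (-2.66) most. FOXM1 is a transcription factor of G2/M genes and CDT1 licenses replication origins. From P5 to P8 21 of 56 and 17 of 31 rose (2.00% of all genes), with PIMREG (2.24), CCNA2 (2.11) and CDC6 (2.42) in front and CDT1 at 2.58, not called. In unsorted FAPs 9 of 56 and 7 of 31 fell from P2 to P5 (1.00% of all genes), and 5 of 56 and 0 of 31 rose from P5 to P8 (0.553%). The largest changes of the first step were DEPDC1 (-1.83), FOXM1 (-1.79), CDC6 (-1.87) and CDT1 (-2.79, not called). Those of the second were DEPDC1 (1.89) and, not called, KIF18B (2.36), CDT1 (2.07) and EXO1 (1.71), and 11 S phase genes had an unadjusted p below 0.05 there in edgeR (21.8% of all genes had).

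In SC cultures neither list had a call from P0 to P2 in edgeR, with 9 of 55 and 7 of 30 genes at an unadjusted p below 0.05, below the 32.6% of all genes, and the values farthest from 0 were MYBL2 (-0.88), ZWINT (-0.84), UHRF1 (-0.98) and CDC6 (-0.95). From P2 to P5 42 of 55 mitosis genes fell in SCs, the checkpoint protein MAD2L1 (-2.42) and FOXM1 (-1.97) most, and 21 of 30 S phase genes, CDT1 (-2.26) and CLSPN (-1.97) most, where 2.62% of all genes fell. From P5 to P8 1 gene of each list was called lower in SCs (1.39% of all genes were called either way), SGO2, which guards cohesion (-1.42, from 38.4 to 15.1 CPM), and MCM7 of the replicative helicase (-1.52, from 79.5 to 28.8 CPM). The largest fitted changes there, in FAM83D, DEPDC1, CCNE2 and E2F1, had no UMI at P8, so no fold change is given. FAPs of SC cultures at P5 exceeded those of FAP cultures for 43 of 56 and 26 of 31 (7.62% of all genes), led by MYBL2 (3.04), KNL1 (2.93), CLSPN (3.54) and RRM2 (3.53). SCs of SC cultures exceeded FAPs of FAP cultures at P2 for 10 of 56 and 2 of 31 (9.46% of all genes, above the S phase share), led by PSRC1 (2.18), NEK2 (1.59) and MCM3 (1.18), with RRM2 at 1.17 and not called. In unsorted cultures 4 of 56 mitosis genes were lower in SCs (5.42% of all genes), CIT (-1.74) most among those called, with KIF14 (-1.76), CDT1 (-1.67) and CLSPN (-1.47) not called, and no S phase gene was called by edgeR, with 4 at an unadjusted p below 0.05 (31.6% of all genes were). Between calves and adults at P0 edgeR called none of either list, with 1 and 0 genes at an unadjusted p below 0.05 in FAPs (5.01% of all genes) and 5 and 4 in SCs (10.3%). The values farthest from 0 were PSRC1 (0.43), MAD2L1 (-0.27), CDT1 (0.36) and PRIM1 (-0.31) in FAPs, and PIMREG (0.44), MYBL2 (0.36), GINS2 (0.40) and MCM5 (0.35) in SCs.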

How the data were processed

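Single cells of muscle and of cultures at 4 later timepoints were profiled with Chromium 3′ libraries. Per the labels and the study's methods, the authors counted UMIs with Cell Ranger 6.0.1 on the bovine build ARS-UCD1.2, assigned cells to animals by genotype, filtered and labeled the cells and scored the phase. The deposited matrices hold raw counts per gene and cell. Per the series text, the files made from both sequencing runs stand under the first run, and they are taken here to hold both. They were joined to the deposited cell labels, and 10 other columns of the cell table were not used. How doublets were treated beyond the authors' filter was not examined.

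Counts were summed per donor, cell type and timepoint with at least 10 cells. Comparisons used edgeR 4.0.16 in R 4.3.3 (trimmed mean normalization, its filter on low counts, robust quasi-likelihood F test, 2-sided), fitted on all genes, and p-values were adjusted over all genes tested. A standard error is the size of the log2 fold change divided by the square root of F. Passages and cell types of the same animals are paired by donor; the main fit leaves this out, and the fit with donor as a replicate block is an alternative. Donors were the replicates throughout. Summed levels were compared by exact sign-flip tests within donors or exact permutation tests between calves and adults. Shares used SciPy 1.17.1, and counting intervals (95%) cover counting error alone. Other alternatives were DESeq2 1.42.0, no filter, at least 30 cells, sums thinned to the smallest, and each donor left out. On simulated counts for FAPs at P0 against muscle, 98.8% of genes changed by 1.5 on the log2 scale were recovered, over 8794 genes, with 0 false calls. Over 11679 genes for SCs at P5 against P2 it was 97.9% with 4 false calls, and over 9855 genes for SCs of calves against adults 96.1% with 4 false calls. The simulation gave every gene the same fixed spread between independent donors, and changed only genes expected to have counts in the smallest sum. The recovered shares therefore do not give the power of the real data.

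The members and the lists of 56 further mitosis and 31 S phase genes were chosen with earlier results of these data known. Each member is accounted for by role; in each comparison the members with the largest and smallest log2 fold change are named, with any called against the rest, and the 2 largest changes of each other list. Further members were named after their values were seen. Transcripts were counted at their 3′ ends, so levels are not ranked between genes.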

Additional observations from a re-analysis of the deposited data

Results flagged for a closer look

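Of 49 groups of donors tested with Dixon's ratio, 5 had a donor far from the others, where chance gives about 1 in 20. AURKA in muscle FAPs was at 9.55 CPM in donor 1 (61 cells, 314002 UMIs of all genes) and at 0 to 3.70 CPM in the other donors. BIRC5 in muscle FAPs was at 18.5 CPM in donor 3 (52 cells, 270458 UMIs of all genes) and at 0 to 4.52 CPM in the others. Both values rest on few UMIs. ANLN in P0 SCs was at 75.0 CPM in donor 2, from 45 cells, and at 117 to 128 CPM in the others. The summed level of the 40 genes was 664 CPM in the muscle lymphocytes of donor 8, against 166 to 394 CPM, and 828 CPM in the muscle macrophages of donor 10, against 141 to 489 CPM. The change from muscle to P0 differed between FAPs and SCs for 39 of the 39 members tested in the interaction term, all larger in FAPs, where 7.60% of all genes were called that way. Of these members CCNB2 and KIF2C had 1 muscle UMI in FAPs and CCNB1 had 2, and with thinned sums none of the 16 that could be tested was called.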

How the results depend on the processing

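The median log2 fold change of the members kept its direction in every comparison and alternative run. The share over all genes was not taken for the alternatives, so their counts describe the members alone. With sums thinned to the smallest, the members called from muscle to P0 were 1 in FAPs, 0 in SCs, 1 in VECs, 0 in SMMCs, 0 in macrophages and 0 in the interaction, where 1, 7, 4, 0, 0 and 16 members could be tested. In the same setting there were 5 in FAP cultures from P5 to P8, 4 and 0 in unsorted FAPs at their 2 steps, 2 in FAPs of SC against FAP cultures at P5 (RACGAP1 and ECT2 at -0.14 and -0.12), and 2 and 0 between SCs and FAPs at P2 in sorted and unsorted cultures. Without the filter the counts were 33 in SCs, 29 in VECs, 39 in SMMCs and 35 in macrophages at P0, 14 in FAP cultures from P5 to P8, 1 and 1 in unsorted FAPs, and 1 and 0 between SCs and FAPs at P2. With at least 30 cells there were 27 in SMMCs, 1 in SCs from P5 to P8 and 11 between SCs and FAPs of sorted cultures, and macrophages gave no value. DESeq2 gave 16 and 20 in unsorted FAPs, 2 in SCs from P5 to P8 and 2 in sorted cultures.

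With donor as a replicate block the counts were 23 and 26 in unsorted FAPs and 3 between SCs and FAPs of unsorted cultures at P2, and the block moved no other count by over 1.5 times. Leaving out 1 donor gave 19 to 40, 4 to 38 and 0 to 29 at the 3 steps of FAP cultures, 0 to 1 and 0 to 0 in unsorted FAPs, 0 to 18 in SCs from P2 to P5, 1 to 37 in sorted and 0 to 0 in unsorted cultures at P2. The share of high cells in FAPs was 4.81% in muscle, 84.1% at P0 and 8.06% in FAP cultures at P5 with 2 UMIs as the limit, 59.0% at P0 with 5, and 88.1% and 7.58% at P0 and P5 when thinned to 4000 UMIs. In SCs it was 70.5% and 21.1% (P0, and P5 of SC cultures) with 2, 45.6% and 9.33% with 5, and 20.2%, 76.9% and 22.2% (muscle, P0, P5) at 4000 UMIs. Muscle SCs had a median of 3861 UMIs, so most of them were left out at 4000 UMIs. Muscle SCs labeled G2/M were deeper than the others (medians 4714 and 3741.5 UMIs), so the SCs kept are not a like sample. Moves of over 1.5 times that stayed within 1 SD over donors were, in muscle FAPs, to 1.05% with 5 UMIs and 2.95% at 4000 UMIs, and in muscle SCs to 12.8% with 2 and 5.05% with 5. In FAP cultures they were to 28.3% at P2 and 27.5% at P8 with 2, 10.3% at P8 with 5, and 28.4% and 29.1% at 4000 UMIs. The cause of these shifts was not tested. Of the values for single members, 4880 kept direction and side of the threshold, 430 were no longer called, 144 were called, 115 that had not been called changed sign, and 2 called ones changed sign.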
